A study of Mus musculus with 4 samples.

Results

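Actin filaments, the proteins that bind along them, and the intermediate filament protein vimentin form much of the internal skeleton of a cell, and 10 genes of this system were followed here in mouse embryonic stem cells that lost the RNA exosome subunit Exosc3. The genes were listed by symbol: the actins Actb, Actg1 and Acta2, the transgelins Tagln and Tagln2, the calponins Cnn1 and Cnn2, the tropomyosin gene Tpm1, the myosin light chain gene Myl9 and the vimentin gene Vim. Of the 10, 9 matched a row of the 22883-row expression table, each a single row, and 8 reached the mean of 0.5 FPKM required for testing, out of 9336 tested rows. Acta2 lay below that limit, and Tagln was not analysed here. FPKM is a count of sequenced fragments divided by the length of the gene model and by the size of the library.

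The cells were V6.5 mouse embryonic stem cells grown without feeder cells, from clones in which Exosc3 is a conditional knockout. All 4 libraries came from this genotype. In the Exosc3-present group doxycycline stayed in the medium, at the 0.1 µg/ml used for maintenance, and in the Exosc3-depleted group it was withdrawn for 3 days; each group had 2 libraries of ribosomal RNA-depleted total RNA. Doxycycline and Exosc3 cannot be told apart in this design. The labels do not say how many clones were used or whether replicates were separate cultures, so the p-values measure only the spread between these libraries, which could be technical.

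Actin exists as monomers that assemble into filaments. Nonmuscle cells build them from the beta and gamma cytoplasmic actins, encoded by Actb and Actg1, while Acta2 encodes the smooth muscle type. Tropomyosins wind along the filament and set which other proteins can bind it, calponins and transgelins are related filament-binding proteins, and the regulatory light chain encoded by Myl9 controls myosin II, the motor that pulls on filaments. Vimentin forms the intermediate filaments typical of mesenchymal cells. Several of these genes, among them Acta2, Tagln and Cnn1, are textbook markers of smooth muscle and are targets of the transcription factor SRF, which binds a short DNA element called the CArG box.

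Exosc3 itself checked the labels. It was at 24.2 and 23.2 FPKM in the Exosc3-present replicates 1 and 2 and at 0.635 and 0.691 in the Exosc3-depleted replicates 1 and 2 (log2 fold change -4.38, SE 0.18, limma adjusted p = 0.000129). The library sizes recovered from the spacing of the FPKM values lay between 38095698 and 60851774 fragments per library. Of these fragments, 49.7% and 51.8% fell in listed gene models in the Exosc3-present libraries and 42.4% and 44.0% in the Exosc3-depleted ones. Replicates were less alike after depletion: the difference in log2 values between the 2 libraries had an SD of 0.432 over rows in the Exosc3-depleted pair and 0.188 in the control pair.

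Of the 8 tested actin and filament genes, 6 were higher in Exosc3-depleted cells and 0 were lower. Tpm1, Vim, Cnn2, Myl9, Actb and Cnn1 rose, in that order of log2 fold change, by between 0.58 and 2.63 on the log2(FPKM + 0.5) scale, where the added 0.5 shrinks the fold change of weakly expressed genes. Tagln2 and Actg1 did not pass the test. Over all tested rows 12.6% were called higher and 30.1% lower (limma with an intensity trend, Benjamini-Hochberg adjusted p under 0.05), and the median row was at log2 -0.27, whereas the median of the 8 genes was 0.65. All 8 genes also passed the filter when it was set on the Exosc3-present libraries alone, so none was tested only because it rose. The genes were chosen with earlier results of these data known, so their count is a description of this group and not a test of it.

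The calls rested on both Exosc3-present libraries. Without Exosc3-present replicate 1 only Tpm1 and Vim passed, and the same 2 genes passed without Exosc3-present replicate 2. With either library left out, the fit takes its residual spread from the more variable Exosc3-depleted pair alone. With an Exosc3-depleted library left out it comes from the tighter control pair alone, so those fits give small p-values by construction and are no sign of a firmer call. Other scalings moved the median row up by 0.21 to 0.30 and changed the split of calls over all rows, from 29.6% higher in the values as deposited to 46.7% after median-of-ratios scaling and 53.7% after scaling without the 50 highest rows. Under each of these scalings the 6 genes had a positive fold change and at least 5 of them passed.

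**Figure D1:**
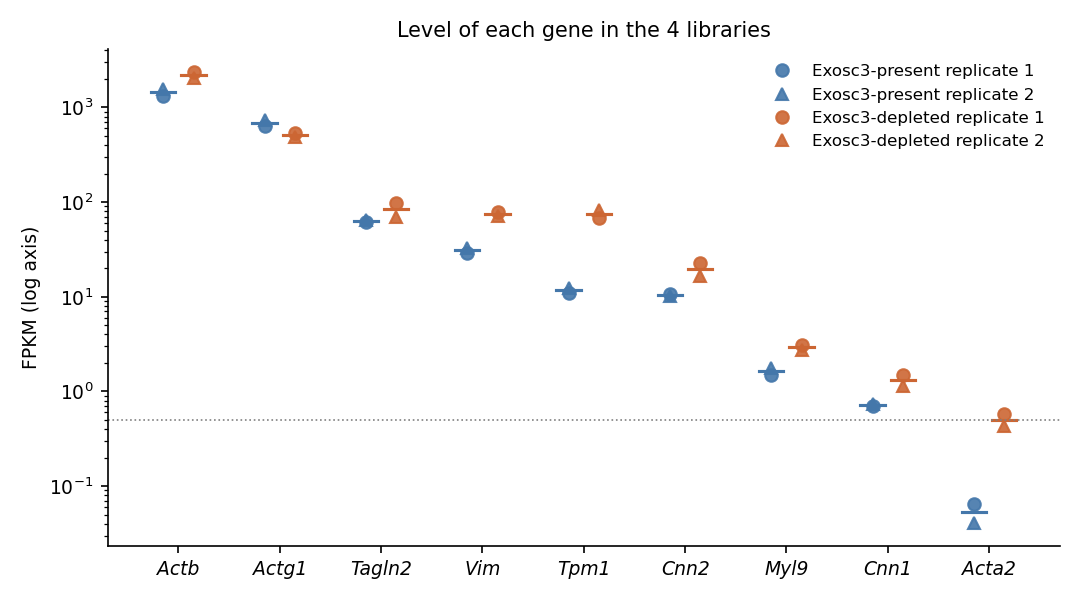
FPKM of each gene (log axis) in the 2 Exosc3-present libraries (blue) and the 2 Exosc3-depleted libraries (orange); short bars are group means and the dotted line is the filter at 0.5 FPKM. Actg1 is the only gene shown that is lower in the Exosc3-depleted libraries.

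Beta actin RNA was among the most abundant in these cells. Actb (uc009ajk.1) was at 1331 and 1568 FPKM in the Exosc3-present libraries and at 2376 and 2027 in the Exosc3-depleted ones, so that both depleted libraries lay above both controls. The means were 1449 ± 167 (SD, n = 2) and 2202 ± 247 (n = 2), a 1.52-fold rise (log2 0.60, SE 0.17, limma adjusted p = 0.0267). Ordered by level, Actb ranked at 62 among the tested rows in Exosc3-present cells and at 37 in Exosc3-depleted cells. The call was lost without Exosc3-present replicate 1 (adjusted p = 0.208) and without Exosc3-present replicate 2 (0.0519). It was also lost when all 15471 rows above 0 were tested without a filter (0.068).

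Gamma actin lay lower in each depleted library, without passing the test. Actg1 (uc007msi.1) was at 642.3 and 729.5 FPKM with Exosc3 and at 539.6 and 490.6 without it, or 685.9 ± 61.6 against 515.1 ± 34.6 (log2 -0.41, SE 0.16, adjusted p = 0.0752). Relative to the median row the difference was only -0.14, and under quantile normalization its sign turned positive (0.12). Of the leave-one-out fits, 1 called Actg1 lower, the fit without Exosc3-depleted replicate 1 (adjusted p = 0.0229).

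The balance between the cytoplasmic actins differed between the groups. A ratio within a library is unchanged by any single scaling factor, but quantile normalization is not of that kind: it reduced the difference between the log2 fold changes of Actb and Actg1 from 1.01 to 0.51, or from a 2.02-fold to a 1.43-fold shift. In the values as deposited, the Actb to Actg1 ratio of FPKM was 2.07 and 2.15 in the Exosc3-present libraries and 4.40 and 4.13 in the Exosc3-depleted ones. Actb made up 67.8% ± 0.57 (n = 2) of the summed FPKM of the 5 actin genes in Exosc3-present cells and 81.0% ± 0.69 (n = 2) in Exosc3-depleted cells. The change of about 13.1 percentage points is many times the spread between replicates, although an exact permutation test of 2 libraries against 2 cannot give a two-sided p below 0.333. The summed actin FPKM was 1974 and 2297 with Exosc3 and 2917 and 2519 without it, so the total also lay higher in both depleted libraries.

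The actin genes are similar in sequence, which bears on how fragments were assigned. Over the 1125 coding bases the reference transcripts of Actb and Actg1 were 88.6% identical, and their longest identical stretch was 62 bases. Acta2 shared 83.3% with Actb and 82.0% with Actg1, with longest stretches of 47 and 56 bases. How the authors' counting treated fragments that match several actin genes is not given in the sources used here, so small transfers between them, above all to the rare Acta2, are uncertain.

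Smooth muscle type actin was rare in all libraries and more frequent after depletion. Acta2 (uc008hgg.1) had 7 and 4 fragments in the Exosc3-present libraries (0.0646 and 0.0407 FPKM) and 39 and 32 in the Exosc3-depleted ones (0.575 and 0.428 FPKM). The groups did not overlap, and the means differed 9.53-fold. Pooled over libraries, the level was 0.0532 FPKM (exact 95% Poisson interval 0.0266 to 0.0953) with Exosc3 and 0.498 (0.389 to 0.628) without it, intervals that cover counting error only. In the fit with no filter on low values Acta2 was called higher (log2 0.85, adjusted p = 0.00699). Even in Exosc3-depleted cells Acta2 supplied just 0.0184% ± 0.0019 of the summed actin FPKM. Acta1, the skeletal muscle actin, was at 0.326 ± 0.139 and 0.475 ± 0.131 FPKM, with overlapping groups.

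Tropomyosin 1 had the largest log2 fold change of the 8 tested genes. Tpm1 (uc009qfp.1) went from 11.0 and 12.5 FPKM to 67.7 and 83.0, or from 11.7 ± 1.05 to 75.3 ± 10.8, a 6.43-fold rise (log2 2.63, SE 0.19, adjusted p = 0.00027). Behind these values stood 1137 and 1171 fragments against 4387 and 5927. It ranked at 60 by log2 fold change among all tested rows. Tpm1 was called higher under all 17 alternative settings run, with log2 fold changes between 2.48 and 3.00. The table holds 1 model for Tpm1, of 1702 bases, so the many splice forms of this gene cannot be told apart.

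Of the other tropomyosin genes, 2 fell and 1 did not pass. Tpm3, the most abundant in Exosc3-present cells, fell from 125.1 ± 18.4 to 80.4 ± 2.49 FPKM (log2 -0.63, adjusted p = 0.0255), and Tpm2 fell from 11.0 ± 0.98 to 5.95 ± 1.01 (-0.84, adjusted p = 0.0146). Tpm4 was at 10.2 ± 0.46 and 17.2 ± 8.67 FPKM (0.63, adjusted p = 0.159). As a share of the summed tropomyosin FPKM, Tpm1 took 7.66% and 7.21% in the Exosc3-present libraries and 40.4% and 43.6% in the Exosc3-depleted ones. Tpm3 went from 79.1% ± 1.19 to 45.2% ± 5.43. The family total was 143.3 and 172.8 FPKM with Exosc3 and 167.5 and 190.1 without it, ranges that overlap, so the makeup of the family changed far more than its sum.

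**Figure D2:**
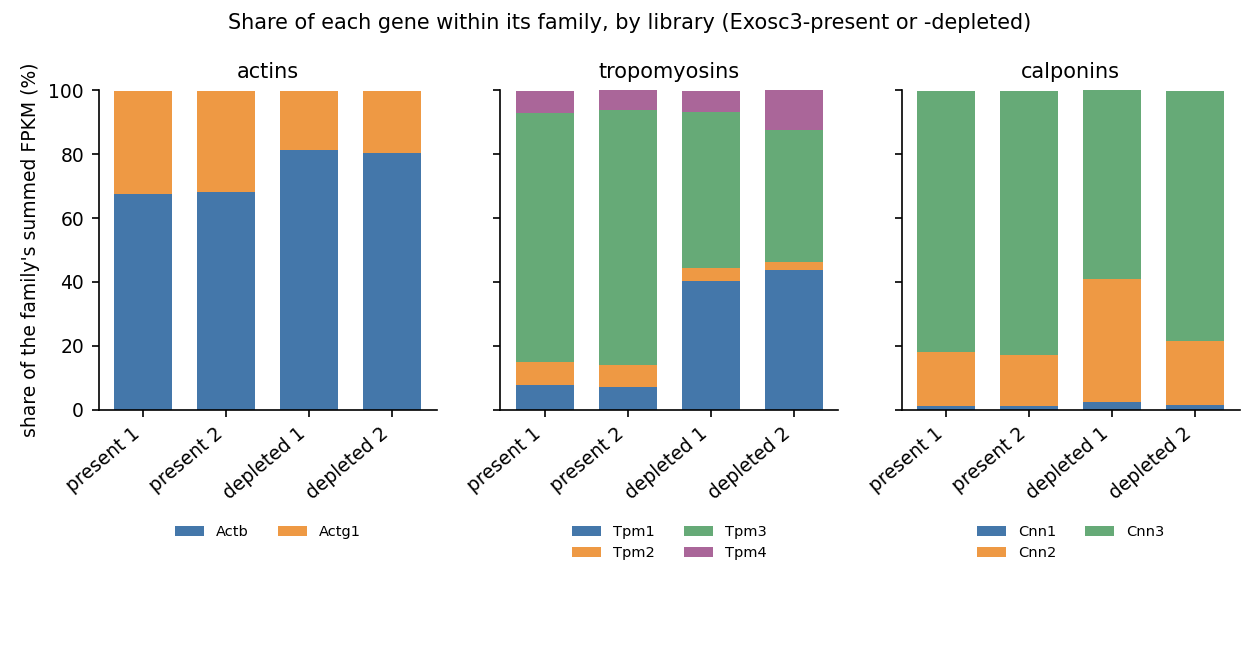
Share (%) of each gene in the summed FPKM of its family in each of the 4 libraries; genes under 0.5% in every library are not drawn. Actb rises from 67.8% to 81.0% of the actins and Tpm1 from 7.44% to 42.0% of the tropomyosins, with replicates close together, while the calponin shares of the 2 Exosc3-depleted libraries lie far apart.

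Both calponin genes of the group rose, from very different levels. Cnn2, which encodes the calponin found in many nonmuscle cells, was at 10.8 and 10.2 FPKM with Exosc3 and at 22.8 and 16.6 without it (10.5 ± 0.37 and 19.7 ± 4.42, log2 0.86, SE 0.21, adjusted p = 0.0154). Cnn1, the smooth muscle calponin, was at 0.703 and 0.738 FPKM against 1.51 and 1.15 (log2 0.58, SE 0.18, adjusted p = 0.0349), from 85 and 81 fragments against 114 and 96. Cnn1 also lost its call under quantile normalization (adjusted p = 0.0542) and when unfiltered rows were all tested (0.07). In both genes Exosc3-depleted replicate 1 was the higher of its pair. Cnn3, the third calponin gene and the most abundant, was at 53.2 ± 0.88 and 49.8 ± 20.7 FPKM and its groups overlapped. Cnn3 was at 35.2 and 64.5 FPKM in Exosc3-depleted replicates 1 and 2, so it differed between them in the direction opposite to Cnn2. The Cnn2 share of the family was 16.8% and 15.8% in the controls but 38.4% and 20.2% after depletion.

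Transgelin 2, an abundant actin-binding relative of the smooth muscle protein encoded by Tagln, did not pass the test. Tagln2 (uc007dqp.1) was at 62.0 and 64.9 FPKM with Exosc3 and at 97.8 and 70.3 without it (63.5 ± 2.04 and 84.1 ± 19.5, log2 0.38, SE 0.20, adjusted p = 0.165). The groups did not overlap, yet the depleted libraries differed from each other by more than the lower of them differed from the controls. The size of the difference turned on 1 library. It was log2 0.62 without Exosc3-depleted replicate 2 (adjusted p = 0.00245, with the spread taken from the tighter control pair alone) and 0.15 without Exosc3-depleted replicate 1 (adjusted p = 0.388). Quantile normalization (0.76, adjusted p = 0.0159) and scaling without the 50 highest rows (0.72, adjusted p = 0.0305) also called it higher. Tagln3, the neuronal family member, fell from 2.41 ± 0.05 to 1.43 ± 0.27 FPKM (-0.60, adjusted p = 0.0394).

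The myosin light chain gene Myl9 rose at a low level. It was at 1.502 and 1.755 FPKM in the Exosc3-present libraries and at 3.08 and 2.77 in the Exosc3-depleted ones (1.63 ± 0.18 and 2.93 ± 0.22, log2 0.69, SE 0.18, adjusted p = 0.0228), from 99 and 105 fragments against 127 and 126. Myl12b, whose coding sequence was 85.5% identical to that of Myl9 and which serves the same function in nonmuscle cells, fell from 81.4 ± 5.37 to 56.2 ± 0.20 FPKM (-0.53, adjusted p = 0.0344). Myl9 thus supplied under 1% of the FPKM summed over Myl9, Myl12b and the essential light chain Myl6 in every library (0.429% and 0.616%, then 0.654% and 0.749%). Myl6 was at 234.7 ± 51.6 and 361.1 ± 71.1 FPKM and just missed the threshold (0.62, adjusted p = 0.057).

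Vimentin RNA rose clearly in both libraries. Vim (uc008ikb.2) was at 29.3 and 32.6 FPKM with Exosc3 and at 78.3 and 72.0 without it, or 30.9 ± 2.36 against 75.2 ± 4.49, a 2.43-fold rise (log2 1.27, SE 0.17, adjusted p = 0.00155). The libraries of each group lay close together and the groups were far apart, with 3265 and 3302 fragments against 5473 and 5541. Its position by level rose from 1274 to 423 among the tested rows. Vim was called higher in all 17 alternative settings, between log2 1.19 and 1.64, and with Tpm1 it was 1 of the 2 genes to keep its call whichever library was left out.

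**Figure D3:**
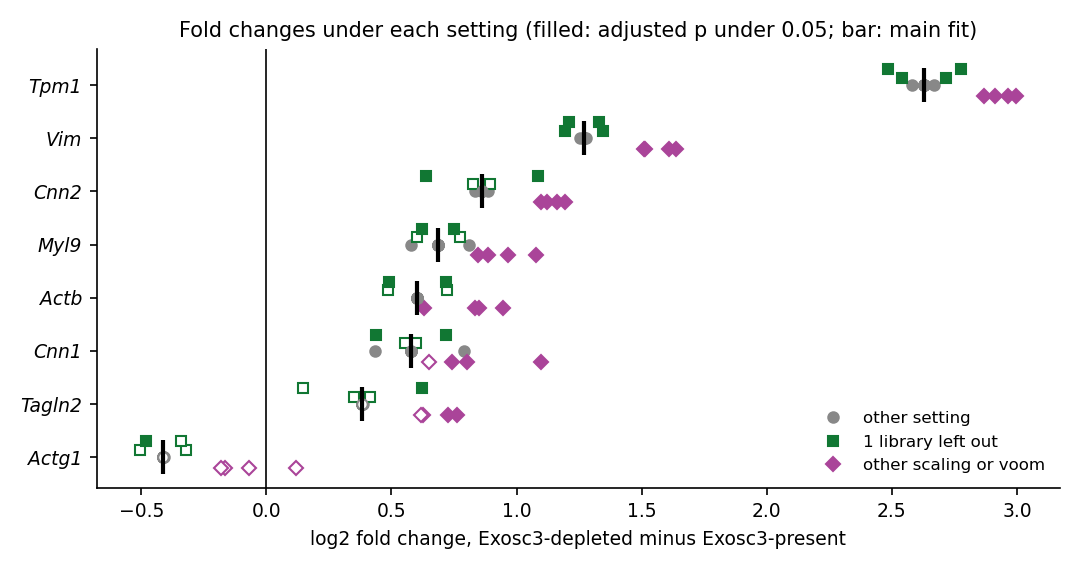
Log2 fold change of each tested gene under every alternative setting; filled symbols have an adjusted p under 0.05, open ones do not, and the black bar is the value reported. Tpm1 (2.48 to 3.00) and Vim (1.19 to 1.64) are filled throughout, whereas the other genes have open squares when an Exosc3-present library is left out, and Actg1 crosses 0 under quantile normalization.

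Since FPKM is per length, the levels of the genes can be set side by side. In Exosc3-present cells the order was Actb, Actg1, Tagln2, Vim, Tpm1, Cnn2, Myl9, Cnn1 and Acta2. Neighbours differed by more than their spread, with the exception of Tpm1 and Cnn2, whose intervals of 1 SD overlapped (11.7 ± 1.05 and 10.5 ± 0.37 FPKM). In Exosc3-depleted cells Tpm1 had moved past Vim in name only, at 75.3 ± 10.8 and 75.2 ± 4.49 FPKM, and both overlapped Tagln2 (84.1 ± 19.5). Set among the tested rows of Exosc3-present cells, Actb lay at percentile 99.3. Acta2 is not one of these rows, so its percentile of 0.268 among them follows largely from the filter. It does not give the place of Acta2 among all rows above 0.

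Promoter sequences were available from RefSeq (GRCm38.p6, a later build than the mm9 of the expression table) for 8 of the 10 genes, each covering 250 bases before to 50 bases after an annotated start site. They were searched on both strands for the CArG box with a core of A and T only, and for TATAAA; the motifs do not overlap each other in these windows. The CArG box was in the windows of Actg1, Cnn2 and Myl9, or 3 of the 8 genes, and in 1.63% of all 32851 promoter windows. TATAAA was in the Vim window and in 13.6% of all windows. These 4 windows are shown because they hold the matches, which are in capitals.
Actg1, chr11:120348446-120348745, minus strand: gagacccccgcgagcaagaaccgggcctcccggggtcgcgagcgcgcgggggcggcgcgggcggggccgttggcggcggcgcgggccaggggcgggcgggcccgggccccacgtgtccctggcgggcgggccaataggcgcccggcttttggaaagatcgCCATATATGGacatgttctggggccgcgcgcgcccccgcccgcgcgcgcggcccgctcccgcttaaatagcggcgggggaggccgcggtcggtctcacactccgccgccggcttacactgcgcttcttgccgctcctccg
Cnn2, chr10:79988350-79988649, plus strand: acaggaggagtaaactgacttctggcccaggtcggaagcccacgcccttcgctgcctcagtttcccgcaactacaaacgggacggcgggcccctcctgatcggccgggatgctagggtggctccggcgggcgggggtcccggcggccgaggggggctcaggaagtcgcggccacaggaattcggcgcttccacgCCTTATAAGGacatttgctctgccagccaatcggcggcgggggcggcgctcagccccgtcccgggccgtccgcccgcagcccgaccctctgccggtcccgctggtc
Myl9, chr2:156775214-156775513, plus strand: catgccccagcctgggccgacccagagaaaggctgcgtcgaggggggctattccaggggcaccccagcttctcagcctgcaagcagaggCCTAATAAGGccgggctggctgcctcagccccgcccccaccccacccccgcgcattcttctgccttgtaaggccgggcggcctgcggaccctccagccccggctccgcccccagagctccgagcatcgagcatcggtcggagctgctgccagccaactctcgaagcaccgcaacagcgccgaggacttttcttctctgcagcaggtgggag
Vim, chr2:13574061-13574360, plus strand: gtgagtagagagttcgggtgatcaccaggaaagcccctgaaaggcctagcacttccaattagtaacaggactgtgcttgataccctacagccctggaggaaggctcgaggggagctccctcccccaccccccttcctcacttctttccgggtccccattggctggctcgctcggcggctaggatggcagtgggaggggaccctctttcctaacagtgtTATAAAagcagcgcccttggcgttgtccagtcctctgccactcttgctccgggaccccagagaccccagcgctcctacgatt

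The CArG match ccatatatgg began 90 bases before the start site of Actg1, ccttataagg began 56 bases before that of Cnn2, and cctaataagg began 161 bases before that of Myl9. The Vim match tataaa began 32 bases before its start site. Of the 3 genes with a CArG box in the window, Cnn2 and Myl9 rose and Actg1 did not pass the test. The windows of Acta2, Tagln2, Cnn1 and Tpm1 held neither motif, which says only that these exact letters are not in this stretch; Tpm1 also has further start sites that the window does not cover. Actb and Tagln were not among the sequences used.

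Other genes of the same families formed a list of their own, and whether their changes differ from those above was not tested. Of 9 tested, 0 were called higher and 6 (66.7%) lower, beside 12.6% and 30.1% of all tested rows. The median log2 fold change was -0.60. Relative to the median row, the 6 lower genes lay between -0.26 (Myl12b) and -0.76 (Myl6b). Besides Tpm2, Tpm3, Tagln3 and Myl12b, the 2 that fell were Actl6a, an actin-related subunit of chromatin remodelers, from 61.2 ± 1.19 to 30.4 ± 2.99 FPKM (-1.002, adjusted p = 0.00385), and the light chain gene Myl6b, from 5.24 ± 0.10 to 2.35 ± 0.59 (-1.03, adjusted p = 0.00854). Actbl2 was listed at 0 in all libraries and Actg2 in 3 of the 4.

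**Figure D4:**
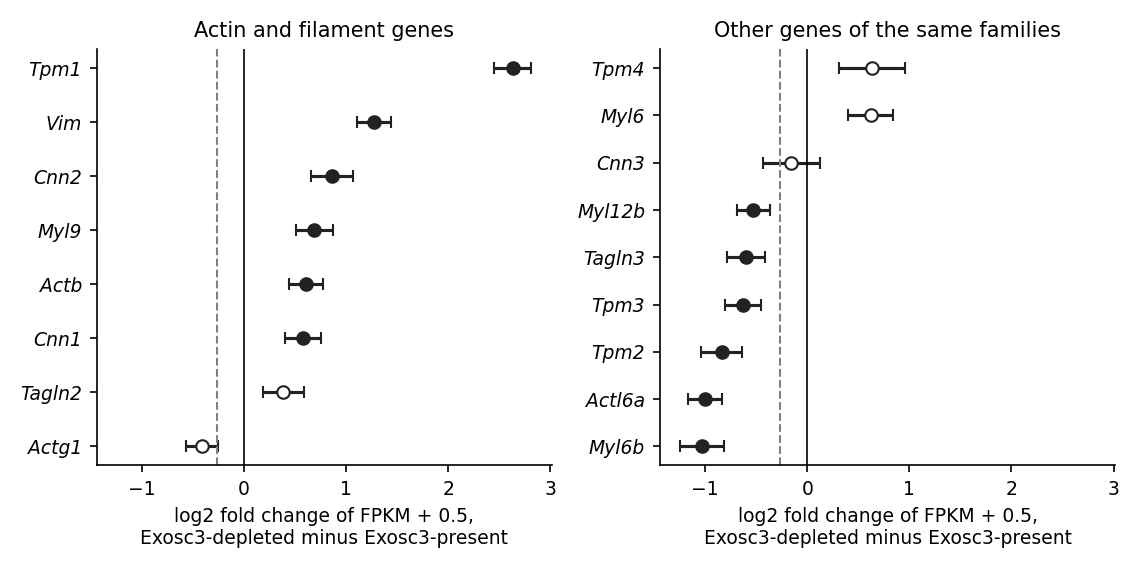
Log2 fold change of FPKM + 0.5 with its limma standard error for the 8 tested actin and filament genes (left) and the 9 tested genes of the same families (right); filled points passed at adjusted p under 0.05 and the dashed line is the median of all tested rows at -0.27. The left panel runs from Actg1 at -0.41 to Tpm1 at 2.63, and the filled points of the right panel are all below 0.

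Regulators of actin assembly were mostly not called. Of 28 tested, 1 rose and 7 fell, or 3.57% and 25.0%, beside 12.6% and 30.1% of all tested rows. The median was log2 -0.23, close to the median row. Gsn, which encodes the filament-severing protein gelsolin, rose from 2.35 ± 0.03 to 8.02 ± 1.82 FPKM (1.56, adjusted p = 0.00186). Tmsb10, a monomer-binding thymosin, fell from 189.0 ± 1.77 to 104.7 ± 6.73 (-0.85), and Arpc1b, a subunit of the branching Arp2/3 complex, fell by 1.08 on the log2 scale. Among crosslinkers and adhesion proteins 4 of 22 rose and 7 fell, or 18.2% and 31.8%, shares near the 12.6% and 30.1% over all tested rows. The LIM domain genes Fhl2 (1.79) and Fhl3 (1.62) and the filamin gene Flnc (1.31) had the smallest p there; Fhl2 reached the filter only through its rise, from 0.0326 to 1.35 FPKM.

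Of the myosin II genes and their regulators 2 of 11 were higher and 3 lower, or 18.2% and 27.3%, again near the shares over all rows. Cald1, whose product caldesmon binds actin together with tropomyosin, rose from 0.846 ± 0.042 to 8.14 ± 4.05 FPKM (2.60, adjusted p = 0.00129), and the heavy chain gene Myh14 fell from 6.32 ± 1.26 to 1.18 ± 0.13 (-2.01, adjusted p = 0.000734). The small GTPase gene Rhoc fell by 1.30 on the log2 scale. Among intermediate filament genes other than Vim and the keratins, 4 of 11 rose and 3 fell. These shares were 36.4% and 27.3%, beside 12.6% and 30.1% of all tested rows. Nes, the nestin gene, rose by log2 2.34 and Synm, whose product synemin assembles with vimentin, by 1.73, from 0.456 ± 0.084 to 2.77 ± 1.17 FPKM. Synm reached the filter only through its rise, and with the filter set on the Exosc3-present libraries 3 of 10 rose and 3 fell. Over all rows that filter gave 823 of 9130 higher and 2932 lower. Lmnb2, a lamin of the nuclear envelope, fell from 28.7 ± 0.74 to 11.6 ± 1.69 (-1.28).

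SRF and its textbook targets outside the group had 6 of 12 tested genes higher and 1 lower, with a median of 0.47. Cyr61 (5.26), Fhl2 (1.79) and Junb (1.78) had the smallest p. Fhl2 again reached the filter only through its rise, and with the filter set on the Exosc3-present libraries 5 of 11 were higher and 1 lower, with a median of 0.20. Over all rows that filter gave 823 of 9130 higher and 2932 lower, with a median of -0.32. RNA of Srf itself was at 5.01 ± 0.03 and 5.02 ± 0.98 FPKM (log2 -0.01, adjusted p = 0.972), and that of its muscle cofactor Myocd was at 0.0035 and 0.0047 FPKM. Srf, Myocd, Fhl1, Vcl and Flna are named after their values were seen. Of 10 tested regulators and markers of the epithelial-mesenchymal transition, 4 rose and 4 fell. The cadherin gene Cdh2 (1.87) and Twist1 (1.17) rose, each from under 0.5 FPKM, so that they reached the filter only through their rise. Cldn6 (0.80) also rose, while Esrp1 (-1.10), Tgfb1 (-1.04), Epcam (-0.78) and Cldn7 (-0.72) fell. The epithelial markers did not all fall. Cdh1, the epithelial cadherin gene, was at 62.9 ± 4.71 and 73.7 ± 28.0 FPKM with overlapping groups (0.17, adjusted p = 0.627). Ocln (-0.41, adjusted p = 0.175) did not pass either. Cldn6, Cdh1, Ocln and the genes that fell are named after their values were seen. With the filter set on the Exosc3-present libraries 1 of 7 rose and 4 fell, beside the same 823 and 2932 of 9130 rows.

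Markers of other cells rich in these proteins were mostly low, and part of them lay higher after depletion. Of 17 fibroblast markers with a row, 12 were below 1 FPKM in every library and 4 were at 0 throughout (Postn, Lum, Dcn and Prrx1). Of 7 tested, 3 rose (42.9%) and 1 fell (14.3%), beside 12.6% and 30.1% of all tested rows. Mmp2 rose by 0.99, Col6a2 by 0.85 and Pdgfra by 0.64, while Thy1 fell by 2.01. Of these 7, 4 were below 0.5 FPKM in Exosc3-present cells, Col6a2 and Pdgfra among them, and so reached the filter only through their higher level after depletion. With the filter set on the Exosc3-present libraries 1 of 4 rose and 2 fell, Thy1 and Pdgfrb. Pdgfrb, which lay below the main filter, went from 0.666 ± 0.023 to 0.113 ± 0.009 FPKM. Over all rows that filter gave 823 of 9130 higher and 2932 lower. The 7 collagen genes with a row stayed at low levels, and only Col6a2 among them was called in the main fit. Col1a1 was at 0.438 ± 0.051 and 0.771 ± 0.323 FPKM, Col5a1 at 0.995 ± 0.187 and 1.65 ± 0.19, and Col6a2 at 0.424 ± 0.052 and 1.17 ± 0.15. Lower still were Col5a2 (0.0681 and 0.487 FPKM), Col6a1 (0.0370 and 0.191) and Col1a2 (0.0656 and 0.115), and Col3a1 lay lower after depletion (0.0123 and 0.0021). Pdgfra, Pdgfrb, Col5a1, Col5a2 and Col6a1 are named after their values were seen. The summed level of the list was 8.81 and 10.3 FPKM in the Exosc3-present libraries and 15.5 and 13.4 in the Exosc3-depleted ones. Mmp2 made up most of that difference, at 3.42 and 4.33 FPKM against 9.20 and 7.15, so the sum does not show a rise across the list. The part of the fibroblast markers in the rise of the actin and filament genes was not tested. Of 9 smooth muscle markers 5 stayed below 1 FPKM in every library, Myh11, the smooth muscle myosin, was at 0.0588 and 0.117 FPKM, and the summed level was 13.5 and 13.8 FPKM in the Exosc3-present libraries and 17.5 and 22.8 in the Exosc3-depleted ones. Cald1 alone carried that difference: without it the sum was 12.6 and 13.0 FPKM against 12.2 and 11.8. Of the 4 tested, Cald1 rose, Hspb6 fell (-1.18), and Smtn (-0.18) and the muscle filament gene Des, at 6.11 ± 0.01 and 6.88 ± 0.38 FPKM, did not pass.

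Many stem cell markers fell in the same libraries. Of 12 tested, 8 fell (66.7%) and 0 rose, beside 30.1% and 12.6% of all tested rows. Their median was log2 -1.20. Their summed level was 3289 and 3299 FPKM in the Exosc3-present libraries against 2047 and 1420 in the Exosc3-depleted ones. Dppa5a made up most of that sum and of its fall, at 2206 and 2230 FPKM against 1357 and 816.9. Dppa5a is named after its values were seen. Fgf4 (-2.33), Klf4 (-1.57) and Esrrb (-1.32) had the smallest p, and Pou5f1 was at 452.3 ± 26.5 and 349.8 ± 90.0 FPKM (-0.39, adjusted p = 0.167). Sox2 and Nanog were not analysed here. The part of a change in cell state in the rise of the actin and filament genes was not tested, and in bulk RNA more cells of a type and more RNA per cell cannot be told apart.

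**Figure D5:**
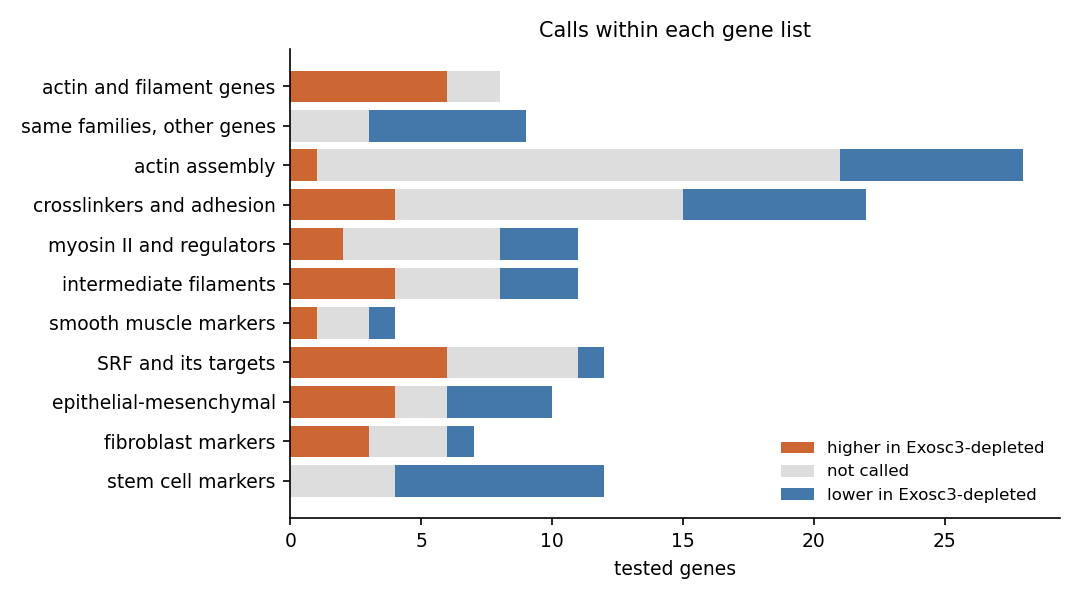
Number of tested genes in each list that were called higher (orange), not called (grey) or called lower (blue) in Exosc3-depleted cells. The actin and filament genes have 6 of 8 higher, while the other genes of their families and the stem cell markers have 0 higher and 6 of 9 and 8 of 12 lower. Over all tested rows 12.6% are higher and 30.1% lower.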

How the data were processed

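The file deposited by the authors is 1 table of FPKM values, whose rows carry a UCSC identifier and a gene symbol and whose value columns are the 4 libraries. The submitters' processing notes list mm9 as the build and name Bowtie2, STAR, Picard, bedtools and edgeR, with neither versions nor roles. How FPKM was computed is not given in the sources used here.

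Fragments, model lengths and library sizes were worked out from how the FPKM values are spaced: each of the 15471 rows above 0 gave whole fragments within 0.004 of a fragment. They were used for depth and for limma-voom. For rows above 0 in only 1 or 2 libraries several lengths can fit.

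Groups of 2 and 2 libraries were compared with limma 3.58.1 in R 4.3.3 on log2(FPKM + 0.5), using an intensity trend and no covariate. Rows needed a mean of 0.5 FPKM or more, which left 9336. Two-sided p-values were adjusted over all of them by the Benjamini-Hochberg method, with calls at 0.05; the variance prior carried 4.98 degrees of freedom and the residual 2. The script was tested on simulated data. No set test was run.

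The genes and lists were chosen with earlier results of these data known. Named are all genes of the group, Exosc3, every tested gene of the same families, the 3 genes with the smallest p in each list, and defining markers of fibroblasts, smooth muscle and stem cells. Promoters are RefSeq's (GRCm38.p6), and coding identity used GENCODE M21 transcripts. Alternatives covered the pseudocount, filter, scaling, variance model, replicate block, each library left out, voom and summed rows. The value of 1 gene that the naming rule selects is not reported here.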

Additional observations from a re-analysis of the deposited data

How the results depend on the processing

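Tpm1, Vim and Exosc3 kept their calls and directions under all 17 alternatives, whose range for Exosc3 was -4.97 to -3.89. Actb kept its call in 14 of 17, Cnn2 and Myl9 in 15 of 17 and Cnn1 in 12 of 16, always with a positive fold change; the filter at a mean FPKM of 2 left Cnn1 untested. Actg1 reversed under quantile normalization (0.12). The number of actin and filament genes called higher was 2 to 7 with 1 library left out, and called lower 0 to 1. The replicate number as a block added Actg1 as 1 lower call (adjusted p = 0.0461) and changed no other call in the group; it gave 1431 higher and 3468 lower rows against 1177 and 2806. Same-numbered deviations correlated at 0.24, and with 2 pairs the numbers are not shown to pair the libraries.

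Over all rows, the count called higher was 667 with the filter at 2 FPKM and ranged from 668 to 2183 with 1 library left out. The count called lower was 1848 after median-of-ratios scaling, 1782 after quantile normalization, 1330 without the 50 highest rows, 1835 with voom and 1082 to 4715 with 1 library left out. In the related lists 36 genes were higher after quantile normalization and 35 without the 50 highest rows, and 23, 23, 22 and 26 were lower after median-of-ratios, quantile, top-50 scaling and voom. With 1 library left out the related lists had 17 to 43 higher and 18 to 60 lower, against 23 and 40 with all. In fragments not scaled by length, an alternative added after seeing the data, the Tpm1 share of its family rose by 32.3 percentage points in place of 34.6. The cause of these shifts was not tested. Few fragments limit Acta2, Cnn1 and Myl9.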
